A study of Homo sapiens and Mus musculus with 14 samples.

Results

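The members described here are the accessible regions (peaks) that lie on human chromosome 7 in the merged ATAC-seq peak lists of MDA-MB-436 cells, a human breast adenocarcinoma line. They were taken by the chromosome name alone, and they numbered 2304 of 39537 peaks in SMARCAL1 knockout clone 1, 1787 of 34572 peaks in SMARCAL1 knockout clone 2 and 3132 of 64806 peaks in control cells. The clone 1 list came from 3 libraries of batch 1, the clone 2 list from 2 libraries of batch 2 and the control list from 3 libraries of batch 1. The genotype of the clones is labelled SMARCAL1 knockout and that of the control only control, all 3 groups were grown in the same medium, and each knockout group is a single clone. The authors merged the replicates of each group into 1 list, so every value below is a single value per list, intervals cover counting error only, and no comparison has a replicate check. Clone 2 was of another batch than control, so batch and genotype cannot be told apart for it. Chromosome 7 was chosen because earlier results on these lists showed an excess of shared peaks on it and a low window beside its centromere, so both are given as descriptions, with no test.

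ATAC-seq uses a transposase that inserts adapters into DNA not covered by nucleosomes, so a peak marks a promoter, enhancer or other open stretch. SMARCAL1 is an ATP-driven enzyme that reanneals and remodels DNA at stalled replication forks, and the study asks how it bears on innate immunity and on the checkpoint ligand PD-L1. Chromosome 7 carries the receptor kinase genes EGFR and MET, the HOXA homeobox cluster, the genes deleted in Williams-Beuren syndrome, very long neuronal genes, and arrays of zinc finger genes on both sides of the centromere.

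The sequences below are RefSeq windows of GRCh38.p14 from 250 bases before to 50 bases after a gene's start. The first pair are shown because they come from 2 dense groups of peaks, one on each side of the centromere, that were in the clone 1 and control lists and had no peak in clone 2. Capitals mark the 105 bases that are identical between them, the longest stretch shared between promoters of these groups. LOC124901644 lies on the plus strand at chr7:63755557-63755856 and LOC124901637 on the minus strand at chr7:56815430-56815729. No peak of any list overlapped the LOC124901644 window itself. The LOC124901637 window had a peak in clone 1 (13.2) and control (13.7) and none in clone 2.

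LOC124901644: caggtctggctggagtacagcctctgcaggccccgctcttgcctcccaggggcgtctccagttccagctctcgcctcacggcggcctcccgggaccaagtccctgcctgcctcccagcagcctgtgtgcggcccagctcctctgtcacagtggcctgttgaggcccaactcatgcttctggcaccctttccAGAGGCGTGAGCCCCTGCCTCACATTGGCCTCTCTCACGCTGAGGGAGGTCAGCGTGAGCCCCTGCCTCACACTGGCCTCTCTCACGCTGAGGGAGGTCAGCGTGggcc

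LOC124901637: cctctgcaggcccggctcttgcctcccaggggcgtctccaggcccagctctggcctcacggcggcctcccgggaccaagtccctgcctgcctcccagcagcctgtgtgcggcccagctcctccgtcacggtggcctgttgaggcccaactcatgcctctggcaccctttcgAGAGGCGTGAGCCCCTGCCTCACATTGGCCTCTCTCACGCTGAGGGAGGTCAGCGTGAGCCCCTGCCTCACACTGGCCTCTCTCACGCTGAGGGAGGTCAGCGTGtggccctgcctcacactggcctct

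The next 4 promoters are shown because each stands for a pattern of presence across the lists. POT1 (minus strand, chr7:124929776-124930075) lay under the strongest control peak of the chromosome and had a peak in all 3 lists. YAE1 (plus strand, chr7:39566154-39566453) had a peak at its end in both clones and none in control. FKBP9 (plus strand, chr7:32957190-32957489) had the strongest control gene-end peak that was absent in both clones. SEPTIN7 (plus strand, chr7:35800736-35801035) had the strongest one that was absent in clone 1 alone. Capitals mark every match, on either strand, of the 5 motifs searched, which were AP-1 (TGANTCA), the GC box (GGGCGG), the ETS core (CCGGAA), the CCAAT box (CCAAT) and the TATA box (TATAAA). Matches may overlap.

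POT1: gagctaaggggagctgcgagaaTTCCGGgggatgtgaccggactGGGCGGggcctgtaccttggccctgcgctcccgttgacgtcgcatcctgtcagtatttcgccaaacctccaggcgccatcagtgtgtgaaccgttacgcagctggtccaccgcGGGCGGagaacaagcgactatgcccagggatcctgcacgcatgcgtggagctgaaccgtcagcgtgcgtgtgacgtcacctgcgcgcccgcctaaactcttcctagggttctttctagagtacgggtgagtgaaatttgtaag

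YAE1: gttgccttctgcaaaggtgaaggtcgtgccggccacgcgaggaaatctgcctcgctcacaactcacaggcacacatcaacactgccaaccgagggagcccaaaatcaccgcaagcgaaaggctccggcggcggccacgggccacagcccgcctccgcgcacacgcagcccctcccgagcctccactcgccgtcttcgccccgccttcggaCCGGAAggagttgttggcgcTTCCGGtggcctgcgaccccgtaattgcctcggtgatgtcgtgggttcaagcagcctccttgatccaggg

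FKBP9: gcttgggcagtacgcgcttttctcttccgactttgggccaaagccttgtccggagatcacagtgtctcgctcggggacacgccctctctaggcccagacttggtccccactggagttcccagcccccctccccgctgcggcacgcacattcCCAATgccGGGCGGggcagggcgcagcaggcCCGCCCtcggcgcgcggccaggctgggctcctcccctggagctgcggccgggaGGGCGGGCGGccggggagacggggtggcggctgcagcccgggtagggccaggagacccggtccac

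SEPTIN7: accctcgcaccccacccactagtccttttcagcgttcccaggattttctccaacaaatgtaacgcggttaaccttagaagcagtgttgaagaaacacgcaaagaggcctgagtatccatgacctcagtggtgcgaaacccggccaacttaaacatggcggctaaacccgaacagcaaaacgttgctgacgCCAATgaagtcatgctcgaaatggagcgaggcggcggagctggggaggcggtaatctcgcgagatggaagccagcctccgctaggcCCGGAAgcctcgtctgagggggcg

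Peaks of chromosome 7 made up 5.83% of the clone 1 list, 5.17% of the clone 2 list and 4.83% of the control list. They covered 1.28 Mb in clone 1, 0.440 Mb in clone 2 and 1.57 Mb in control, and their median width was 433.5 bp in clone 1, 199 bp in clone 2 and 389 bp in control. Gene-end peaks, meaning those no more than 1000 bp from the start or the end of a protein-coding gene as annotated, were 21.9% of the clone 1 peaks, 27.3% of the clone 2 peaks and 19.2% of the control peaks on the chromosome. The score of a peak is the authors' −log10 p, so a score of 5 is the smallest kept. Scores on chromosome 7 reached 36.8 in clone 1, 50.4 in clone 2 and 49.3 in control. Scores depend on the depth of each list, which is unknown because the files hold no read counts, so they are given to describe and rank peaks within a list and not as a difference between lists. The control gene-end peaks of the whole list included those of 2 of 5 basal breast markers (KRT17 and EGFR), 4 of 7 luminal markers, 4 of 4 mesenchymal markers and 2 of 3 melanocyte markers. None of the 3 leukocyte markers had one.

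Of the 3132 control peaks on chromosome 7, 1657 had no overlapping peak in clone 1. This was 52.9% (exact binomial 95% interval 51.1 to 54.7%), beside 57.9% of all control peaks. Clone 2 had no peak over 1739 of them, or 55.5% (53.8 to 57.3%), beside 57.1% of all. Both clones lacked 1380, or 44.1% (42.3 to 45.8%), beside 46.7% of all, and both held 1116, or 35.6%, beside 31.7% of all. A further 359 were found in clone 1 alone, or 11.5%, beside 10.4% of all, and 277 in clone 2 alone, or 8.84%, beside 11.2% of all. The share absent on chromosome 7 was thus below that of the whole list in both clones, but the clone 2 interval holds the whole-list value.

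These shares depended on how strong the peaks were and on how overlap was defined. Among control peaks above the median score of the list, 26.6% were absent in clone 1 and 27.5% in clone 2. When at least 50% of the control peak had to be covered, 56.3% were absent in clone 1 and 85.8% in clone 2, the list with the narrowest peaks. With lists cut to equal length by score, 31.5% were absent in clone 1, 29.4% in clone 2 and 19.7% in both.

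**Figure D1:**
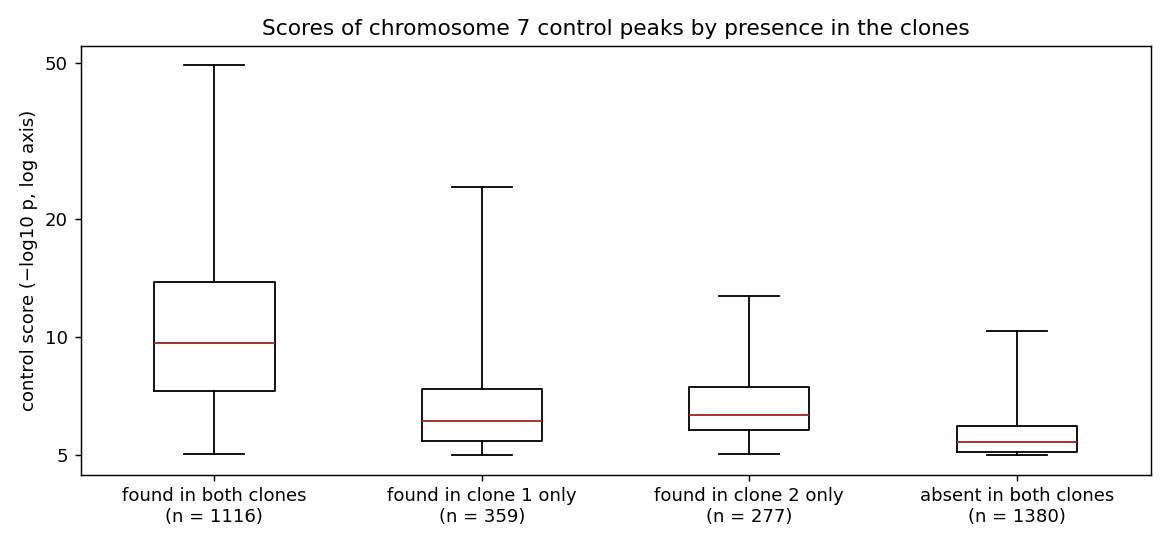
Control scores (−log10 p, log axis) of the 3132 control peaks on chromosome 7, split by their presence in the clones. Boxes span the quartiles, the line is the median and whiskers reach the lowest and highest peak. The median was 9.64 for peaks found in both clones and 5.41 for those absent in both.

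Those that both clones shared with control had a median score of 9.64 and a median width of 681.5 bp, and 33.4% of them were gene-end peaks. Those absent in both clones had a median score of 5.41 and a median width of 240 bp, and 8.19% were gene-end peaks. The peaks found in clone 1 alone (median score 6.10) and in clone 2 alone (median score 6.34) lay between these. They differed in position, since 24.5% of those found in clone 1 alone and 9.39% of those found in clone 2 alone were gene-end peaks. Of the 1380 peaks absent in both clones, 80.7% had scores under the control list's median, and 6 were in its upper 2 deciles.

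The 5 strongest control peaks absent in both clones lay inside LHFPL3 (score 10.4), inside TRIL (10.3), inside KDM7A (10.1), inside KMT2E (9.83) and between genes, 35.7 kb from the nearest end of MNX1 (9.82). TRIL encodes a co-receptor of Toll-like receptors, KDM7A a histone demethylase, KMT2E a protein of the lysine methyltransferase family and MNX1 a motor neuron homeobox factor. The 5 strongest control peaks of the chromosome were present in all 3 lists. The strongest, at chr7:124929462-124930302, spans the end of POT1, whose product binds the single-stranded end of telomeres. It scored 26.5 in clone 1, 40.4 in clone 2 and 49.3 in control. The others were a peak inside GRM8 (18.6 in clone 1, 29.6 in clone 2 and 40.5 in control), peaks at the ends of SAMTOR and ING3, and one inside ETV1.

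Because strong peaks were found more often than weak ones, a ratio was formed of control peaks found to control peaks expected, where the expected number assumes that each control score decile is found at the rate of the whole list. Clone 1 held 1475 of the chromosome 7 control peaks where 1308 were expected, a ratio of 1.13 (1.09 to 1.17). Clone 2 held 1393 where 1332 were expected, a ratio of 1.05 (1.005 to 1.09). Among the 23 chromosomes with 100 or more control peaks, chromosome 7 ranked 2 by this ratio in clone 1, after chromosome 19, and 5 in clone 2. Clone 1 had 0.736 peaks on chromosome 7 for each control peak there, rank 1 of 23, beside 0.610 over the whole list. Clone 2 had 0.571, rank 7, beside 0.533.

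**Figure D2:**
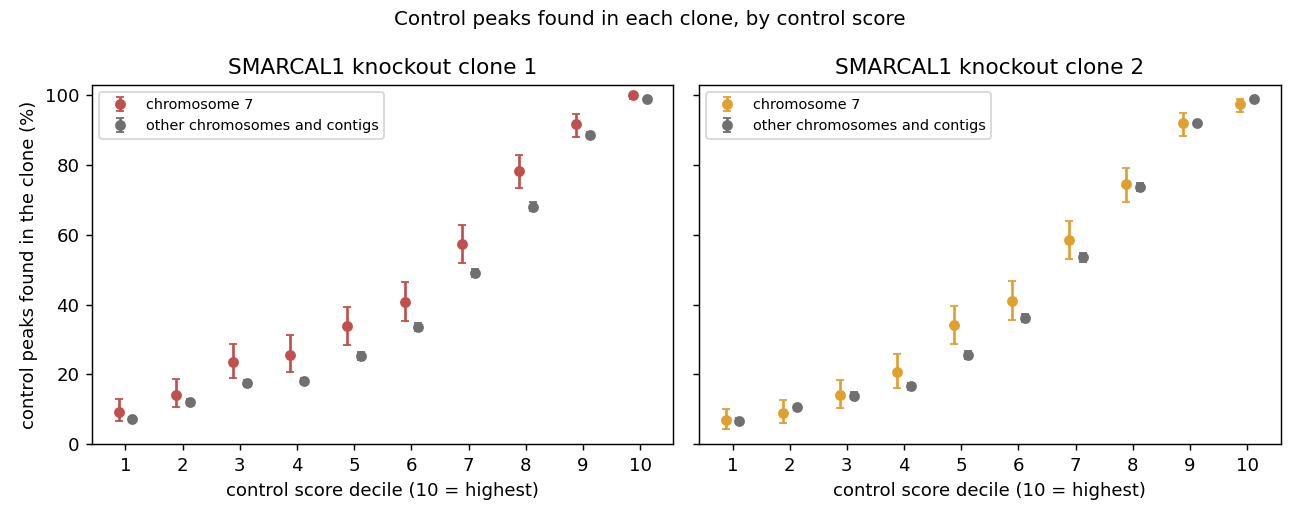
Share of control peaks found in clone 1 (left) and clone 2 (right) by decile of the control score, for chromosome 7 (coloured) and for all other chromosomes and contigs (grey). Bars are exact binomial 95% intervals. In clone 1 chromosome 7 lay above the rest in 10 of 10 deciles, and in clone 2 in 8 of 10.

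By decile of control score, the share found in clone 1 was higher on chromosome 7 than elsewhere in 10 of 10 deciles. In decile 4 it was 25.7% on chromosome 7 and 18.1% elsewhere, in decile 8 it was 78.3% on chromosome 7 and 68.1% elsewhere, and in the top decile all 324 peaks of chromosome 7 were found. In clone 2 chromosome 7 was higher in 8 of 10 deciles, with 34.1% against 25.5% elsewhere in decile 5 as the widest gap. Several of these gaps were small. They were 6.82% against 6.79% elsewhere in decile 1 and 14.1% against 13.9% in decile 3. In decile 8 they were 74.5% against 73.7%, and in decile 9 92.2% against 92.1%. Chromosome 7 was lower in the second decile (8.86% against 10.6% elsewhere) and in the top decile (97.5% against 98.9% elsewhere). Weighting the deciles equally, 47.5% of chromosome 7 control peaks were found in clone 1 and 41.9% of those elsewhere, a difference of 5.63 percentage points (95% interval 4.22 to 7.04). For clone 2 the shares were 44.9% on chromosome 7 and 42.8% elsewhere, a difference of 2.07 points (0.709 to 3.42). The gaps in clone 1 were widest from decile 3 to decile 8.

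The clone 1 ratio was alike on both sides of the longest stretch without control peaks, 4.10 Mb long at chr7:57869562-61970108. It was 1.13 (1.05 to 1.20) on the short arm side and 1.13 (1.08 to 1.18) on the long arm side. In clone 2 it was 1.10 (1.03 to 1.17) on the short arm side and 1.02 (0.965 to 1.07) on the long arm side. At gene-end peaks of chromosome 7 the ratio was 1.23 (1.17 to 1.28) in clone 1 and 1.04 (0.978 to 1.10) in clone 2. Over all chromosomes the gene-end ratios were 1.19 in clone 1 and 1.02 in clone 2. At the other peaks of chromosome 7 it was 1.09 (1.03 to 1.14) in clone 1, beside 0.932 over all chromosomes. The interval of the chromosome 7 gene-end ratio in clone 1 holds the value of all chromosomes, whereas that of the other peaks lies above it.

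Peaks absent in control were a larger part of the clone lists on chromosome 7 than of the whole lists. They numbered 838 of 2304 in clone 1, or 36.4% (34.4 to 38.4%), beside 30.7% of the whole clone 1 list. In clone 2 they numbered 249 of 1787, or 13.9% (12.4 to 15.6%), beside 11.1% of the whole clone 2 list. The 838 clone 1 peaks had a median score of 5.52 and a median width of 281 bp, and 5.13% of them were gene-end peaks. The clone 1 peaks also in control had a median score of 6.89 and a median width of 566 bp, and 31.5% were gene-end peaks. The clones shared few of these peaks. Both sets held 47 of the 838 peaks at overlapping places, which is 5.61% of the clone 1 set (beside 4.83% over the whole list) and 18.9% of the clone 2 set (beside 15.6%).

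The strongest peaks of both clones that control lacked lay inside genes. One inside DGKB, a diacylglycerol kinase gene, scored 8.89 in clone 1 and 10.9 in clone 2. One inside SEMA3A, which encodes a secreted axon guidance cue, scored 8.68 in clone 1 and 14.1 in clone 2. Others were inside ASNS, RAPGEF5 and THSD7A. The strongest clone 2 peak absent in control, with a score of 17.3, lay inside SEMA3D and was absent in clone 1 too, and another inside PCLO scored 16.3.

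In 5 Mb windows along the chromosome, the control list held between 28 and 187 peaks per window. The most lay at 155 to 160 Mb, the last window of the long arm, with 187 control peaks, and at 5 to 10 Mb, with 156. They were sparsest at 85 to 90 Mb, with 28. All 32 windows held at least 20 control peaks, the minimum set for a ratio. In clone 1 the interval of the ratio lay above 1 in 6 windows and below 1 in 0. In clone 2 it lay above 1 in 7 windows and below 1 in 3. The median ratio of the chromosome 7 windows was 1.15 in clone 1, beside 0.989 over the 553 windows of other chromosomes, and 1.05 in clone 2, beside 1.03.

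**Figure D3:**
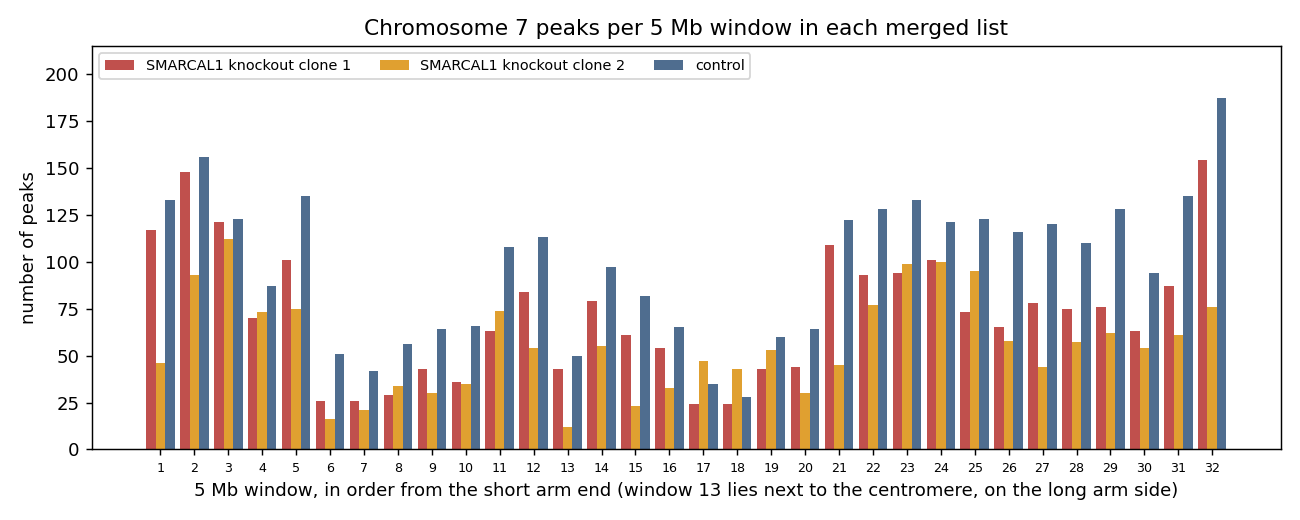
Number of peaks in each 5 Mb window of chromosome 7, in order from the short arm end, in clone 1, clone 2 and control. Control had the most peaks in most windows. In windows 17 and 18 clone 2 had 47 and 43 peaks and control 35 and 28, and in window 13 clone 2 had 12 and control 50.

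Windows high in both clones lay at 10 to 20 Mb and 85 to 90 Mb. At 10 to 15 Mb the ratio was 1.29 (1.07 to 1.502) in clone 1 and 1.46 (1.25 to 1.66) in clone 2. This window holds the longest run of control peaks found in both clones, 9 in a row over 538 kb at ETV1, an ETS family factor gene, and DGKB. At 15 to 20 Mb it was 1.39 (1.11 to 1.66) in clone 1 and 1.46 (1.18 to 1.72) in clone 2. At 85 to 90 Mb, 22 of 28 control peaks were found in clone 1 and 27 of 28 in clone 2, giving a ratio of 1.57 (1.18 to 1.83) in clone 1 and 1.87 (1.58 to 1.94) in clone 2, the highest of the chromosome in each.

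The stretch from 80 to 90 Mb was the one where clone 2 held more peaks than control. It had 48 peaks in clone 1, 90 in clone 2 and 63 in control. A run of 8 control peaks found in both clones lay there, over SRI, STEAP4 and ZNF804B. Gene-end scores at DBF4, the activating subunit of the CDC7 replication kinase, were 13.5 in clone 1, 23.9 in clone 2 and 15.2 in control. At GRM3, a glutamate receptor gene, they were 5.18 in clone 1, 27.4 in clone 2 and 7.55 in control. Both genes had a gene-end peak in every list.

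In other windows the clones lay apart, a difference that was not tested. At 70 to 75 Mb the ratio was 1.52 (1.16 to 1.89) in clone 1 and 0.787 (0.503 to 1.13) in clone 2, and at 100 to 105 Mb it was 1.46 (1.19 to 1.72) in clone 1 and 0.856 (0.630 to 1.11) in clone 2. At 155 to 160 Mb clone 1 held 98 of 187 control peaks where 79.0 were expected, and clone 2 held 64 where 79.9 were expected. At 130 to 135 Mb both were low, at 0.889 (0.687 to 1.11) in clone 1 and 0.680 (0.498 to 0.885) in clone 2. The lowest windows of clone 1 were 45 to 50 Mb, at 0.779 (0.495 to 1.12), and 25 to 30 Mb, at 0.881 (0.536 to 1.29), and both intervals hold 1. Across the 32 windows the rank correlation of the ratio with the number of protein-coding genes was 0.14 in clone 1 and -0.53 in clone 2. It is a description, since the windows share the same 3 lists and the same expectations.

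**Figure D4:**
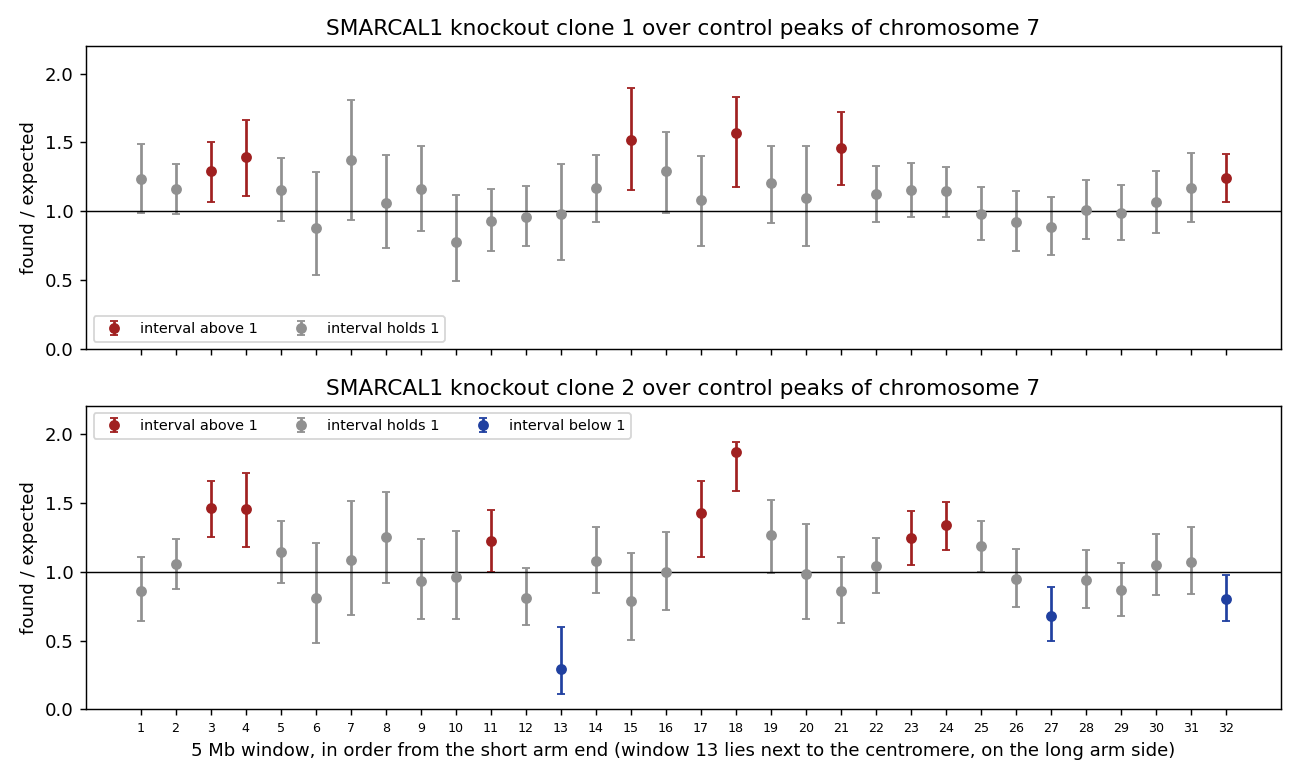
Control peaks found in clone 1 (top) and clone 2 (bottom), divided by the number expected from control score deciles, in 32 windows of 5 Mb in order from the short arm end. Bars are exact binomial 95% intervals. Red intervals lie above 1 (6 windows in clone 1, 7 in clone 2) and blue ones below 1 (0 in clone 1, 3 in clone 2). Window 13 in clone 2, at 0.296, is the lowest.

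The window at 60 to 65 Mb, the first with peaks on the long arm side of the centromere, held 43 peaks in clone 1, 12 in clone 2 and 50 in control. Clone 1 held 20 of the 50 control peaks where 20.4 were expected, a ratio of 0.982 (0.648 to 1.35). Clone 2 held 6 where 20.3 were expected, a ratio of 0.296 (0.112 to 0.599). Of the 553 windows of other chromosomes, 1 had a lower ratio in clone 2 and 260 had a lower ratio in clone 1. By this ratio the window thus stood apart in clone 2 and lay in the middle of the range in clone 1. By peaks absent in control it was not ordinary in clone 1. These were 23 of its 43 clone 1 peaks, or 53.5%, beside 36.4% on the whole chromosome. That share was the highest of the chromosome's windows in clone 1. In clone 2 they were 3 of 12, or 25%, beside 13.9% on the whole chromosome.

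The gap in clone 2 lay among the stronger control peaks. In the upper 5 deciles of control score the window held 20 peaks, of which 18 were found in clone 1 (15.9 expected) and 6 in clone 2 (16.3 expected). In the lower 5 deciles it held 30, of which 2 were found in clone 1 (4.51 expected) and 0 in clone 2 (4.02 expected). The 6 peaks found in both clones scored between 15.8 and 26.8 in control. Of these, 3 span ends of the zinc finger genes ZNF680, ZNF107 and ZNF138, 1 lies inside ZNF273, and 2 lie between genes nearest to ZNF722. At ZNF107 the gene-end score was 16.02 in clone 1, 23.1 in clone 2 and 26.8 in control, and at ZNF138 it was 11.9 in clone 1, 29.7 in clone 2 and 23.1 in control. The other 14 control peaks that were found were in clone 1 alone, and 30 were in neither clone, with control scores between 5.01 and 8.65.

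Of those 14 peaks, 12 formed one dense run at chr7:63750539-63763085, within 12.5 kb. Their control scores were between 6.39 and 24.2, 4 of them fell in the top decile of the control list, and clone 1 held 12 peaks there with scores up to 28.4. Clone 2 held 0 peaks in the run. The run covers a row of short protein-coding models, among them LOC124901645 (gene-end score 21.5 in clone 1, none in clone 2, 23.5 in control) and LOC124901647 (28.4 in clone 1, none in clone 2, 24.2 in control). A second run of this kind lay on the other side of the centromere at chr7:56812325-56826610. There 9 control peaks in 14.3 kb, with scores between 5.02 and 15.0, were matched by 10 peaks in clone 1 and 0 in clone 2, over LOC124901637, LOC124901638 and LOC124901639. Runs of at least 9 consecutive control peaks found in clone 1 alone within 20 kb numbered 4 over all chromosomes and contigs, and 2 of them were these.

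Most promoters of the 2 runs share sequence across the centromere. Of the 14 RefSeq promoters that overlap them, 9 share at least 20% of their 20-base words with the run on the other side, counting both strands. Of 35102 promoters elsewhere, 1 holds any of these words, that of LOC124901643 just past the end of the run on the long arm side. Their GC content is between 64 and 70%, with a median of 67%, beside a median of 62.7% over all protein-coding promoters. How reads of such copies were placed is not given in the sources used here, so a peak over shared sequence cannot be tied to 1 copy. Promoters of LOC124901647, LOC124901651, LOC124901652, LOC124901797 and LOC124901798 share 0% of their words with the other run. Sequence outside the promoters was not compared. The ratio of the window was also formed without both runs, after seeing the data. It was 0.688 (0.312 to 1.22) in clone 1 and 0.534 (0.204 to 1.06) in clone 2. The runs were picked for being in clone 1 and not in clone 2. Leaving them out therefore lowers the clone 1 ratio and raises the clone 2 ratio by construction, and no conclusion is drawn from it.

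Elsewhere in the window, ZNF273 had a gene-end peak in control alone (score 6.10). ZNF727 (5.07) and ZNF735 (5.11) had one in clone 1 alone. ZNF722, ZNF679, ZNF736 and ZNF117 had none in any list. ERV3-1, an endogenous retroviral envelope gene, had one in all 3, with 10.2 in clone 1, 19.9 in clone 2 and 19.8 in control, in a peak just beyond the window. A run of 10 control peaks absent in both clones lay between genes at chr7:63011396-63725254, with control scores between 5.01 and 7.33. That stretch was not empty in the clones. Clone 1 peaks lay between these control peaks, from chr7:63068359 to chr7:63683759. Clone 2 peaks lay there at chr7:63068338-63068444 and chr7:63240668-63240774.

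By gene, 565 of the 938 protein-coding genes of chromosome 7, or 60.2%, had a gene-end peak in control, beside 60.7% of all genes. Of these, 100 had none in clone 1, or 17.7%, beside 21.1% of such genes on all chromosomes, and 143 had none in clone 2, or 25.3%, beside 30.1%. Neither clone had one at 73 genes, or 12.9%, beside 15.9%, and both had one at 395, or 69.9%, beside 64.7%. Given the deciles of their control gene-end scores, the genes kept were 1.03 times the expected number in clone 1 (0.988 to 1.07) and 1.05 times in clone 2 (0.993 to 1.10). Both intervals hold 1, so at the level of genes no excess was detectable by this measure. With lists cut to equal length by score, 66 genes had no gene-end peak in clone 1, 78 in clone 2 and 36 in either.

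POT1, given above, was followed by 4 genes whose strong gene-end peaks were in every list. SAMTOR, a sensor of S-adenosylmethionine in mTORC1 signalling, had 18.4 in clone 1, 40.7 in clone 2 and 39.4 in control. ING3, a subunit of a histone acetyltransferase complex, had 20.5 in clone 1, 39.1 in clone 2 and 37.5 in control. CHCHD2, which encodes a mitochondrial protein, had 22.99 in clone 1, 49.7 in clone 2 and 33.6 in control, and UMAD1 had 36.8 in clone 1, 50.4 in clone 2 and 32.7 in control.

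The strongest control gene-end peaks absent in both clones had much lower scores. FKBP9, a peptidyl-prolyl isomerase gene, came first with 8.19. EIF4H, a translation initiation factor gene, had 7.88, DBNL, which encodes an actin-binding adaptor, 7.64, and HOXA13 7.32. They were followed by NUPR2 (7.30), INHBA (7.28), which encodes the activin A subunit, CHN2 (7.23), a Rac GTPase-activating protein gene, and LFNG (7.18), which encodes a glycosyltransferase that modifies Notch receptors. While all 8 lacked one in either clone, 4 had a clone peak elsewhere within 10 kb of the gene. DBNL had 5 clone 1 peaks, NUPR2 3 clone 1 peaks and 1 clone 2 peak, EIF4H 1 clone 1 peak and LFNG 1 clone 2 peak.

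Few genes had a gene-end peak in a clone and none in control. Clone 1 had one at 28 of 373 such genes, or 7.51%, beside 5.89% on all chromosomes, and clone 2 at 5, or 1.34%, beside 1.54%. Both clones had one at 2, which is 0.536%, beside 0.559%. They included YAE1, involved in the maturation of an iron-sulphur protein of ribosome recycling, scoring 6.07 in clone 1 and 10.3 in clone 2. With lists of equal length there were 13 such genes, and counting only peaks near the transcription start, a setting added after seeing the data, there was 1.

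Some strong gene-end peaks were missing in 1 clone. SEPTIN7, a cytoskeletal GTPase gene, had none in clone 1, 8.99 in clone 2 and 12.04 in control. STK17A, a kinase gene of the death-associated family, had none in clone 1, 8.02 in clone 2 and 9.83 in control, and ARPC1A, an Arp2/3 complex subunit gene, had none in clone 1, 8.67 in clone 2 and 8.51 in control. The call for ARPC1A depended on the distance rule, since within 3000 bp of its gene ends it had a peak in all 3 lists. OR2A5, an olfactory receptor gene, had none in clone 1, 16.8 in clone 2 and 8.42 in control. SPDYE14 belongs to a family of close copies, so its peaks (none in clone 1, 9.54 in clone 2 and 8.23 in control) are uncertain. The 5 strongest that clone 2 alone lacked were all in the dense run described above, and share peaks with each other.

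**Figure D5:**
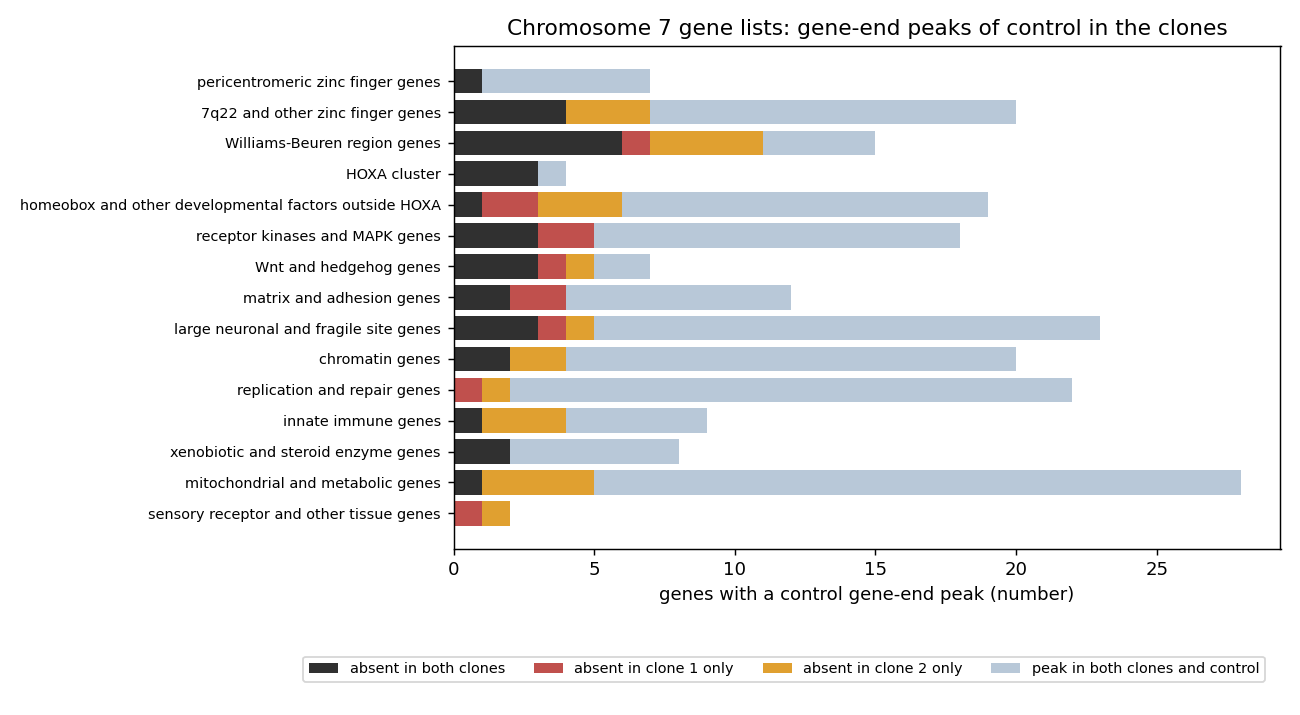
Genes of 15 chromosome 7 gene lists that had a control gene-end peak, split by whether the peak's gene end had a peak in the clones. Bars count genes. Neither clone had one at 6 of 15 Williams-Beuren region genes and 3 of 4 HOXA genes, beside 12.9% of such genes on the chromosome. In the replication and repair list, which also holds genes of other functions, 20 of 22 had one in both clones.

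For comparison with the gene lists below, 60.2% of all protein-coding genes of chromosome 7 had a control gene-end peak. Of those genes, 69.9% had one in every list and 12.9% had none in either clone. Of the 24 genes of the replication and repair list, 22 had a control gene-end peak, and 20 of these had one in every list. The list was drawn broadly, and RADIL, CCZ1, POLR1F, ANLN and CHCHD2 among the 20 are genes of other functions. PMS2, a mismatch repair gene, had 13.6 in clone 1, 26.6 in clone 2 and 22.1 in control. RPA3, a subunit of the single-stranded DNA binding complex that SMARCAL1 binds, had 10.8 in clone 1, 23.7 in clone 2 and 12.6 in control, and XRCC2, a homologous recombination gene, had 11.6 in clone 1, 18.02 in clone 2 and 13.6 in control. RFC2, a clamp loader subunit gene, had 6.05 in clone 1, none in clone 2 and 7.39 in control. MCM7, a replicative helicase subunit gene, had none in clone 1, 8.80 in clone 2 and 5.97 in control. Its clone 2 peak did not overlap the control peak, and the MCM7 promoter window had a peak in control alone. None of the 22 was without a gene-end peak in both clones, beside 12.9% of such genes on the chromosome. The list's median control score was 10.5, beside 9.67.

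The metabolic list was alike, with 23 of 28 genes in all 3 lists and 1, the asparagine synthetase gene ASNS, in control alone (6.63). That call depended on the distance rule. Within 1000 bp of its transcription start, a setting added after seeing the data, ASNS had a peak in all 3 lists. Within 500 bp of its gene ends it had one in 0 lists. Clone 2 alone lacked a gene-end peak at 4, namely GARS1, MRPS24, SBDS and MDH2. Of 20 genes of the chromatin list with a control peak, 16 had one in all 3 lists. That list also holds genes of other functions, among them SMURF1 and ACTR3B. EZH2, the catalytic subunit of Polycomb complex 2, had 9.56 in clone 1, 14.4 in clone 2 and 13.8 in control. TRRAP, a scaffold of histone acetyltransferase complexes (6.63), and JAZF1 (5.67) had one in control alone.

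At 7q11, 15 genes of the Williams-Beuren region had a control gene-end peak, and 4 of them (BAZ1B, BCL7B, TBL2 and NCF1) had one in every list. Neither clone had one at 6, or 40%, beside 12.9% of such genes on the chromosome. They were NSUN5 (5.43), FZD9 (5.63), DNAJC30 and BUD23, which share a peak (6.22), EIF4H (7.88) and GTF2IRD1 (6.40). The list's median control score was 6.93, beside 9.67 over the chromosome's genes. Clone 2 alone lacked one at METTL27, LIMK1, RFC2 and GTF2I, and clone 1 alone at ABHD11. NCF1 and GTF2I have near copies in the repeats that flank this region, so their peaks are uncertain.

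In the HOXA cluster, 4 of 12 genes had a control gene-end peak. HOXA4 had one in every list (5.01 in clone 1, 9.15 in clone 2 and 6.20 in control). HOXA10 (6.32), HOXA11 (5.92) and HOXA13 (7.32), which pattern the posterior body and limbs, had one in control alone. These were 3 of 4, beside 12.9% of such genes on the chromosome. The median control score of the HOXA list was 6.26, beside 9.67 over the chromosome's genes. Of the 19 other developmental factor genes with a control peak, 13 had one in all 3, among them TWIST1 (8.47 in clone 1, 14.2 in clone 2 and 13.6 in control), a driver of mesenchymal states, and 1, GBX1, had one in control alone (6.25).

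Gene-end peaks of 18 genes of the receptor kinase and MAPK list were in control, and those of 13 were in both clones too. The 13 include genes of other kinds, among them CDK5, CDK13, CDK14, RAC1, RHEB, MIOS and INSIG1. EGFR had 7.35 in clone 1, 16.6 in clone 2 and 11.1 in control, and it had 15 peaks in clone 1, 14 in clone 2 and 16 in control within 10 kb of the gene. MET, the hepatocyte growth factor receptor gene, had 14.1 in clone 1, 22.002 in clone 2 and 16.1 in control, and BRAF had 8.80 in clone 1, 10.7 in clone 2 and 12.3 in control. PDGFA (5.10), GRB10 (5.91) and HIPK2 (5.40) had one in control alone. CDK6, a cell cycle kinase gene, had one in clone 1 alone (5.32). Of 7 genes of the Wnt and hedgehog list, FZD1 and LMBR1 had one in every list. SFRP4 (6.98), TNS3 (5.15) and FZD9 (5.63) had one in control alone. LMBR1 and TNS3 are in that list but are not genes of either pathway.

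Of 27 genes of the innate immune list, 9 had a gene-end peak in control and 5 of these in all 3 lists. That list also holds genes of other functions, FSCN1 among them. IL6, an inflammatory cytokine gene, had 7.66 in clone 1, 11.6 in clone 2 and 6.93 in control. ZC3HAV1, which encodes the antiviral protein ZAP, had 6.49 in clone 1, 9.63 in clone 2 and 8.15 in control, and RNF216, NAMPT and PARP12 also had one in every list. IRF5, an interferon regulatory factor gene, had one in control alone (6.39). Clone 2 alone lacked one at FSCN1, NOD1 and TRIM4, and TRIM56 (5.06) and PILRB (5.22) had one in clone 1 alone. The 7 GIMAP genes, known from lymphocytes, had none in any list, nor had SAMD9 and SAMD9L.

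Of 20 zinc finger genes at 7q22 and elsewhere with a control peak, 13 had one in every list, and ZNF789 (5.04), ZNF394 (5.06), ZKSCAN5 (6.85) and ZKSCAN1 (5.06), all near 100 Mb, had one in control alone. Of 7 genes of the pericentromeric list, which holds ERV3-1 beside zinc finger genes, 6 had one in every list, ERV3-1 among them. That list's median control score was 19.8. Matrix and adhesion genes had one in all 3 at 8 of 12, including the caveolin genes CAV1 and CAV2, while FLNC (5.09) and PODXL (6.59) had one in control alone. Among xenobiotic and steroid enzymes 6 of 8 had one in every list, and CYP3A5 (5.06) and TBXAS1 (5.40) in control alone. TBXAS1 starts beside the end of HIPK2, given above, with the same control score, so both calls may rest on a single peak. Of 39 sensory receptor and other tissue genes, 36 had none in any list and 0 had one in all 3.

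Within 10 kb of the 28 large neuronal and fragile site genes lay 320 control peaks, of which 150, or 46.9%, were absent in both clones, beside 44.1% of all chromosome 7 control peaks. The share varied between genes. MAGI2, a synaptic scaffold gene, lacked 1 of 9 control peaks in both clones, GRM8, a glutamate receptor gene, 3 of 14, HDAC9, a histone deacetylase gene, 6 of 22, and the diacylglycerol kinase gene DGKB 4 of 16. These 4 were picked for their low shares after their values were seen. PTPRN2, CNTNAP2, DPP6 and SDK1 were chosen for their high counts of absent peaks. Of the 23 large neuronal and fragile site genes whose ends had a peak in control, 18 had one in all 3 lists, while PDE1C (5.09), GALNT17 (5.23) and JAZF1 had one in control alone. PTPRN2, a receptor phosphatase gene at the end of the long arm, had 35 peaks in clone 1, 8 in clone 2 and 42 in control within 10 kb of the gene. Of its 42 control peaks, 23 were absent in both clones. CNTNAP2, a neurexin family gene, had 16 peaks in clone 1, 15 in clone 2 and 31 in control, and SDK1, an adhesion gene, had 15 in clone 1, 5 in clone 2 and 20 in control. DPP6, an auxiliary subunit of potassium channels, had no gene-end peak and 5 peaks in clone 1, 5 in clone 2 and 17 in control. It overlaps the longest run of control peaks absent in both clones, 14 in a row over 1143 kb, and reaches past its end.

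Promoter sequence was compared between classes of presence for the 799 of 938 protein-coding genes that had a RefSeq promoter. A peak overlapped the promoter in all 3 lists at 300, in control alone at 57, in control and clone 1 at 63, in control and clone 2 at 15, and in a clone without control at 21. The median GC content was 66% at promoters with a peak in all 3 lists, 71.3% at those with one in control alone and 54% at the 343 with none. Over all chromosomes the control-only class had a median of 66.7%. The GC box was present in 77.0% of chromosome 7 promoters with a peak in all 3 lists, 82.5% of those with one in control alone and 28.6% of those with none, beside 58.5% of all promoters. The CCAAT box was present in 43.3%, 38.6% and 30.6% of these classes, beside 36.4% of all, and the ETS core in 33.0%, 28.1% and 10.5%, beside 22.8%. AP-1 words were in 2.33%, 5.26% and 9.91%, beside 5.76%, and TATA boxes in 4%, 1.75% and 13.99%, beside 9.62%. A match describes the letters and is not evidence of binding.

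Among chromosome 7 promoters with a control peak, those in the lowest quintile of GC content (27 to 58.7%) had a peak in clone 1 in 60 of 65 cases and in clone 2 in 48 of 65. In the highest quintile (73.7 to 89.7%) it was 73 of 92 in clone 1 and 67 of 92 in clone 2. Over all chromosomes the lowest quintile had a peak in 76.5% of cases in clone 1 and 63.2% in clone 2. On chromosome 7 these shares were 92.3% in clone 1 and 73.8% in clone 2. The other quintiles did not all lie on that side. In the third quintile clone 1 had a peak at 79.8% of chromosome 7 promoters, beside 83.7% over all chromosomes, and in the fourth at 79.4%, beside 80.8%. Clone 2 had one at 62.9% in the fourth quintile of chromosome 7, beside 69.8%.

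RefSeq lists 68 miRNA hairpins on chromosome 7, of which 12 had a control peak within 1000 bp and 5 had one in every list. MIR6132 had the highest score of these, with 19.6 in clone 1, 38.2 in clone 2 and 28.9 in control. Another 5 had a peak in control alone. They included MIR148A (5.90) and MIR196B (6.32), which lies in the HOXA cluster beside HOXA10 and shares its control peak.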

How the data were processed

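ATAC-seq of MDA-MB-436 cells was analysed from 3 peak lists, 1 each for SMARCAL1 knockout clone 1, SMARCAL1 knockout clone 2 and control; the 6 B16F10 mouse libraries were not used. Per the labels the replicates were merged by the authors. The submitters' processing notes name HISAT2, MACS2, ChIPseeker and hg38 without versions or settings. The deposited score has no header and was read as −log10 p from its values, since 8, 12 and 10 of the 12 most frequent scores (clone 1, clone 2, control) were steps of a Poisson tail. Deposited coordinates count from 0 and are printed from 1.

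With Python 3.11.15, pandas 2.3.3, numpy 2.4.6 and scipy 1.17.1, a peak counted as found where 1 bp overlapped. Windows were 5 Mb by peak midpoint. Expected numbers used 10 bins of control score over the whole list. Genes, promoters and miRNAs came from RefSeq GRCh38.p14; no genome sequence was used. The overlap and ratio steps were tested on simulated data. No count of reads is in the files, so the depth is unknown. The members, the 15 gene lists (339 of 345 genes matched) and the rules for named genes, peaks and windows were chosen with earlier results of these data known. Named genes were those of the 60 to 65 Mb window, the strongest by control score in each class of presence, those with the most absent peaks, list members absent or gained in both clones, and a few fixed genes; other members named illustrate their list and were chosen after their values were seen. Alternatives changed the overlap rule, list lengths, score selection, expectation bins and gene-end distance. Peaks on 40, 20 and 67 lines of chromosome 7 alternative or unplaced contigs (clone 1, clone 2, control) were left out. Some items that these rules take are not reported here.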

Additional observations from a re-analysis of the deposited data

Results flagged for a closer look

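The window at 155 to 160 Mb was singled out because the clones lay on opposite sides of expectation, with both intervals clear of 1. Clone 1 held 98 of its 187 control peaks, a ratio of 1.24 (1.07 to 1.42), and clone 2 held 64, a ratio of 0.801 (0.643 to 0.972). The difference between the clones was not tested, since each has 1 merged list, and clone 2 is of another batch than clone 1 and control. PTPRN2, with 35 peaks in clone 1, 8 in clone 2 and 42 in control, lies in this window.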

How the results depend on the processing

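No paired analysis was possible because the replicates of each group were merged into 1 list before deposit, and for the same reason no replicate could be left out in turn. Of 82 recomputed values, 57 stayed within the interval of the reported value or within 1.5 times the reported count and 25 moved. The shares of peaks moved most. For control peaks absent in clone 1, in clone 2 and in both, lists of equal length gave 31.5%, 29.4% and 19.7%. Peaks above the median score gave 26.6%, 27.5% and 17.1%, peaks whose score is a recognisable mean 28.4%, 30.6% and 17.2%, and an overlap of at least 50% gave 56.3%, 85.8% and 52.9%. For clone 1 and clone 2 peaks absent in control, the values were 43.3% and 26.6% with lists of equal length, 13.99% and 6.46% above the median score and 7.76% and 4.94% for recognisable means, and 40.0% in clone 1 with 50% overlap. The chromosome 7 ratio was 1.11 in clone 2 with 50% overlap. Its interval held 1 with lists of equal length (0.999 to 1.06), where the ratio was 1.03; in clone 1 it stayed between 1.11 and 1.16 under every setting run. The 60 to 65 Mb ratio in clone 2 was between 0.293 and 0.578. In clone 1 it was between 0.688 and 1.13, on both sides of 1. The clone 2 interval held 1 with 50% overlap. It also held 1 without the dense runs, whose removal raises the clone 2 ratio by the way they were picked. With lists of equal length 66 genes had no gene-end peak in clone 1, 78 in clone 2 and 36 in either, and 13 had one in both clones and none in control, where distance from the transcription start gave 1. Of 85 named genes, the lists holding a gene-end peak were the same for 75 within 500 bp, 77 within 3000 bp and 66 with lists of equal length.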
